A study of Mus musculus with 23 samples.

Results

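RNA-seq counts of the mitochondrial genome were examined for 10 transcripts, the 2 ribosomal RNAs mt-Rnr1 and mt-Rnr2 and the 8 messages mt-Nd1, mt-Nd2, mt-Nd4, mt-Nd5, mt-Nd6, mt-Co1, mt-Co2 and mt-Cytb. They were chosen by their symbols in the GENCODE vM1 annotation, and are 10 of the 37 rows on the mitochondrial chromosome (chrM) and of the 37310 gene rows in each library. All RNA-seq libraries came from feeder-free mouse embryonic stem cells (ESCs) of the E14 line grown in serum with LIF, and each RNA-seq group had 3 biological replicates. Lists of ChIP-seq peaks from E14 cells were also used. FLAG-Zbtb11 was from Zbtb11 FLAG/FLAG cells, in which the endogenous protein carries a FLAG tag. The Zbtb11 antibody and the FLAG control were used in wild-type cells. The EtOH control is the Zbtb11 lox/lox, Rosa26 ERt2-Cre line after 48 h with ethanol, the solvent of 4-hydroxytamoxifen (4OHT). Zbtb11 KO is the same line after 48 h with 250 nM 4OHT, which activates the Cre recombinase and deletes the floxed Zbtb11. The 4OHT control is Zbtb11 WT/WT cells with a WT Rosa26 locus after 48 h with 250 nM 4OHT, which sets it apart from the EtOH control by both its genotype and the agent. The inducible line was derived from single colonies, so it stands for 1 clone, and the agent and the deletion cannot be told apart between KO and the EtOH control.

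All 10 ESC markers examined, among them Pou5f1, Nanog and Sox2, were above 1 CPM (read counts scaled to the library's total) in every library. Their summed level was 4464 to 5388 CPM, against 16.05 to 26.6 CPM for 5 fibroblast genes. The counts on genes ranged from 14301457 to 23876604 per library with a median of 20416692, and replicate 1 of the 4OHT control was the shallowest. The deletion itself could not be followed at the RNA level, because the annotation assigns the transcript that spans Zbtb11 to the gene Rpl24. Libraries of replicate 1 lay apart from the others in all 3 groups, so results are also given with the replicate number as a term in the fit (replicate block) or without replicate 1 where that moved a call.

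Mitochondrial DNA is a small circle that is transcribed from both strands into long precursors. The tRNAs that lie between the other genes are cut out, which releases the rRNAs and messages. In the mouse the heavy-strand precursor yields both rRNAs and all messages but 1, and the light strand yields mt-Nd6. The messages encode core subunits of the respiratory chain, and mt-Rnr1 (12S) and mt-Rnr2 (16S) are the RNAs of the small and large subunit of the mitochondrial ribosome, which translates them. ESCs have few mature mitochondria and rely strongly on glycolysis.

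The first question was which of these transcripts the counts can follow at all. The message mt-Co2 (chrM:7013-7696, mm9, plus strand), which encodes subunit 2 of cytochrome c oxidase, had between 0 and 3 counts in each library and was under 1 CPM in all 9. Replicates 1, 2 and 3 of the EtOH control held 3, 0 and 1 counts of it, those of KO 1, 0 and 0, and those of the 4OHT control 0, 0 and 1. Its neighbours mt-Atp8, mt-Atp6, mt-Co3, mt-Nd3 and mt-Nd4l were under 1 CPM in every library too, and these 6 messages together received 18 counts over the 9 libraries. The other 7 protein-coding genes, all of them among the 10 transcripts, received 4866 to 143827 counts per library and gene. The genes near 0 lie side by side on chrM. A search of chrM against the rest of mm9 found a segment of chromosome 1 (chr1:24618374-24623027, minus strand) that matched chrM:6390-11042 over 4654 aligned bases at 99.9% identity, with 2 differing bases and 1 gap. It runs from within mt-Co1 to within mt-Nd4.

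The middle 75 bases of mt-Co2, the length of a sequenced read, are shown because they are the same on chrM and in the nuclear segment. The middle of mt-Cytb (chrM:14145-15288, plus strand), a message that was counted in every library, is set beside its own, more diverged copy on chromosome 4. Capitals mark the bases that differ within a pair, of which there were 0 for mt-Co2 and 6 for mt-Cytb. Both are from mm9, at chrM:7317-7391 (plus) and chr1:24622026-24622100 (minus), and at chrM:14679-14753 (plus) and chr4:79650427-79650501 (plus).
mt-Co2, chrM: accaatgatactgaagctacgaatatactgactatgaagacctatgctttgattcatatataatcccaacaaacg
mt-Co2, chromosome 1: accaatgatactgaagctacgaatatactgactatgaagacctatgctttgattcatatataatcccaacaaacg
mt-Cytb, chrM: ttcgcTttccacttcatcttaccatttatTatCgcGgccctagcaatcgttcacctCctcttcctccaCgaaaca
mt-Cytb, chromosome 4: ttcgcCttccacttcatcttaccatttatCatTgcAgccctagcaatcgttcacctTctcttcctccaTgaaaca

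Across chrM, 5207 of the 16225 windows of 75 bases (32.1%) had an exact copy elsewhere in mm9. For mt-Co2, mt-Atp8, mt-Atp6, mt-Co3 and mt-Nd4l this share was 100%, and for mt-Nd3 it was 98.9%. Of the transcripts that were counted, mt-Nd4 (chrM:10167-11544, plus) had a share of 61.5% and mt-Co1 (chrM:5328-6872, plus) 39.8%. Their counts come from the remainder of the gene or from read pairs that reach into it. The libraries were paired-end, and the windows take no account of the second read of a pair. The share was 5.7% for mt-Nd2, 2.85% for mt-Rnr2 and 1.66% for mt-Nd5, and no window of mt-Rnr1, mt-Nd1, mt-Nd6 or mt-Cytb had an exact copy. Reads with several alignments are not in the counts. The genes annotated inside the chromosome 1 segment, Gm10222 and Gm10925, were low too, with 43 to 97 and 2 to 22 counts per library. Counts near 0 for mt-Co2 therefore cannot be read as a low level of its message, and mt-Co2 was not tested further.

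**Figure D1:**
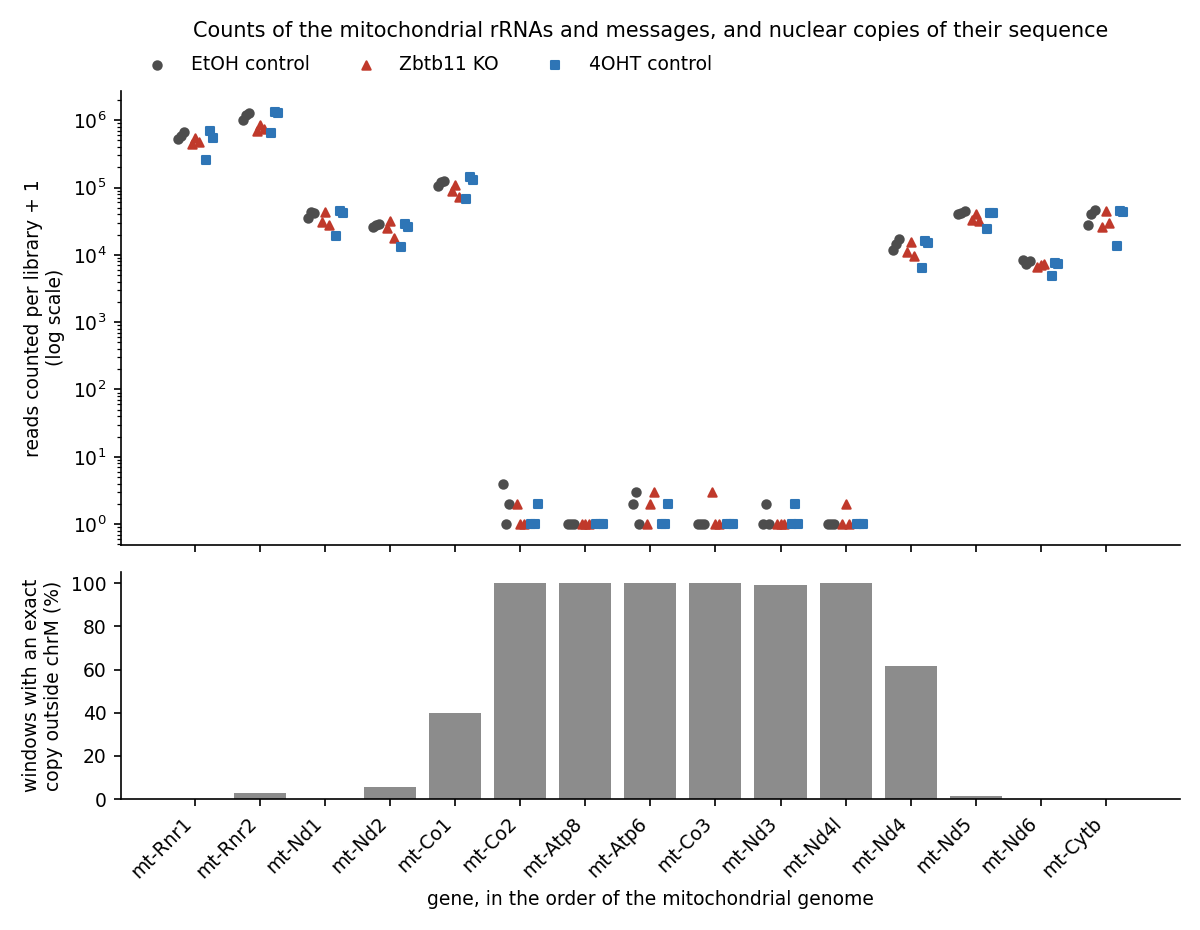
Upper panel, reads counted per library plus 1 on a log axis for each mitochondrial rRNA and message, with 3 libraries per group. Lower panel, the percentage of 75-base windows of each gene with an exact copy elsewhere in mm9. The 6 genes at 0 to 3 counts are those at 98.9 to 100% in the lower panel.

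The counted transcripts were then ordered by level, as CPM per kb of annotated length with TMM scaling, averaged over the 9 libraries. The rRNAs were highest despite the rRNA depletion of the libraries, with mt-Rnr2 (chrM:1094-2675, plus) at 30946 ± 5518 (SD) CPM per kb and mt-Rnr1 (chrM:70-1024, plus) at 26809 ± 4261. Their ranges overlapped, and mt-Rnr2 was above mt-Rnr1 in all 6 control libraries and below it in all 3 KO libraries. These values are what depletion left and are not the level in the cell. Next came mt-Co1, the catalytic subunit of cytochrome c oxidase, at 3409 ± 532 CPM per kb, above mt-Nd1 (chrM:2751-3707, plus) at 1857 ± 281 without overlap of their ranges. The complex III subunit mt-Cytb followed at 1478 ± 346, below mt-Nd1 in 9 of 9 libraries and above the complex I subunit mt-Nd2 (chrM:3914-4951, plus; 1185 ± 216) in 6 of 9 libraries, and mt-Nd2 was above mt-Nd5 (chrM:11742-13565, plus; 1024 ± 98.3) in 7 of 9. The ranges of mt-Nd1, mt-Cytb, mt-Nd2 and mt-Nd5 each overlapped with the next. The lowest were mt-Nd6 (chrM:13552-14070, minus) at 683 ± 72.3 and mt-Nd4 at 459 ± 83.8 CPM per kb, and neither overlapped its neighbour.

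The place of mt-Nd4 depended on the length used. Per kb of windows without an exact nuclear copy, mt-Nd4 moved from the lowest counted rank to 1260 ± 230, between mt-Nd2 (1353 ± 247) and mt-Nd5 (1085 ± 104), while mt-Co1 stood at 5951 ± 928 and kept its place after the rRNAs. On this scale mt-Nd4 and mt-Nd5 overlapped, with mt-Nd4 above in 7 of 9 libraries. The scale treats reads singly, although the libraries were paired-end. The annotated chrM genes have a single exon each, and none has an intron. Of the 22 tRNA genes, 21 were under 1 CPM in every library, with 0 to 9 counts. The exception was mt-Tp, which had 116 to 199 counts. The tRNA genes are 59 to 75 bases long, no longer than a read, so these counts were not read as tRNA levels.

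Zbtb11 KO was compared with the EtOH control to ask whether loss of Zbtb11 is accompanied by a change in these transcripts. The 16S rRNA mt-Rnr2 was at 53108, 50675 and 58636 CPM in replicates 1, 2 and 3 of the EtOH control, and at 40364, 40951 and 36741 CPM in KO. All 3 KO libraries lay below all 3 EtOH libraries. The difference was -0.46 on the log2 scale (SE 0.124, 95% interval -0.74 to -0.18), with an adjusted p value of 0.354 by the edgeR quasi-likelihood test. With the replicate block it was -0.46 with an adjusted p value of 0.0139, and without replicate 1 it was -0.49 with 0.0457, both past the threshold of 0.05. By DESeq2 it was -0.46 with an adjusted p value of 0.0707. The call for mt-Rnr2 in this comparison thus depended on the replicate term or on leaving out replicate 1, while the difference stayed between -0.54 and -0.35 whichever library or replicate was left out.

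In this comparison 0 of the 9 tested transcripts were called in the fit without the block, where 0.899% of all 14346 tested genes were called. DESeq2 called 0 of the 9 and 1.25% of all genes. Under an unadjusted p value of 0.05 were 1 of the 9, mt-Rnr2, and 2.8% of all genes. With the block 1 of 9 was called, against 2.25% of all genes, and without replicate 1 also 1 of 9, against 1.5%. The groups did not overlap for 1 of the 9, again mt-Rnr2, and for 7.21% of all genes. The median log2 fold change of the 9 was -0.10, beside 0.00 for all tested genes.

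The 12S rRNA mt-Rnr1, which is the neighbour of mt-Rnr2 on the same precursor, was at 27361, 24815 and 30700 CPM in the EtOH control and at 25634, 25995 and 23565 CPM in KO. These groups overlapped, and the difference of -0.14 (95% interval -0.55 to 0.27) did not pass the test.

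Among the messages, mt-Co1 was at 5471, 5206 and 5845 CPM in the EtOH control and at 5113, 5308 and 3564 CPM in KO. The low value was KO replicate 3, and the groups overlapped. Its difference was -0.24 (95% interval -0.61 to 0.13). With the block it was -0.25 with an adjusted p value of 0.448 (edgeR), although the 95% interval, -0.490 to -0.016, lay below 0. Without KO replicate 3 the difference was -0.08, and without replicate 3 of every group it was -0.04.

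The 5 complex I messages differed by -0.12 to 0.00 on the log2 scale, and none passed the test. For mt-Nd5, the most precisely measured of them, the difference was -0.12 with a 95% interval of -0.37 to 0.13. The values of mt-Nd1 were 1804, 1846 and 1927 CPM in the EtOH control and 1789, 2072 and 1354 CPM in KO, so the KO libraries lay on both sides of the controls. The same replicate 3 of KO was the lowest of its group for mt-Nd1, mt-Nd2, mt-Nd4, mt-Nd5, mt-Co1 and mt-Cytb, and for both rRNAs. For mt-Cytb, the only complex III subunit encoded on chrM, the difference was -0.03 with the widest interval, -0.67 to 0.61. Intervals of this width, from the fit without the block, leave room for changes of either sign in the messages.

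KO was compared with the 4OHT control, in which both arms received 4OHT but the cells differ in genotype and clone. The 4OHT control had 43764, 60570 and 55796 CPM of mt-Rnr2, all above the 3 KO libraries, with replicate 1 the lowest. The difference was -0.44 (SE 0.124, 95% interval -0.72 to -0.16) with an adjusted p value of 0.0739 (edgeR). It passed the threshold with the block (-0.43, adjusted p value 0.00281 by edgeR), without replicate 1 (-0.59, 0.00282 by edgeR), without replicate 1 of the 4OHT control alone (-0.57, 0.0083 by edgeR) and by DESeq2 (-0.44, 0.0197). This comparison and the preceding one share the KO libraries, so they are not independent of each other.

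For mt-Rnr1 the 4OHT control had 17410, 30963 and 23981 CPM, a range that spans the KO values, and the difference was 0.06 (95% interval -0.36 to 0.47). For mt-Co1 the 4OHT control had 4652, 6482 and 5758 CPM. KO was lower in 2 of 3 replicates, by -0.27 over all (95% interval -0.64 to 0.10). With the block the 95% interval of mt-Co1, -0.512 to -0.038, lay below 0, with an adjusted p value of 0.0667 (edgeR). The message mt-Co1 was called only without replicate 1 (-0.47, adjusted p value 0.048 by edgeR). Of the 9 transcripts 0 were called, where 6.45% of all genes were, and 1 by DESeq2 where 10.2% of all genes were. Under an unadjusted p value of 0.05 were 1 of the 9 and 19.2% of all genes. With the block 1 was called, where 34.9% of all genes were. Without replicate 1 2 were called, where 18.7% of all genes were. In KO against the 4OHT control the groups did not overlap for 2 of the 9, mt-Rnr2 and mt-Nd6, and for 22.9% of all genes. The message mt-Nd6 was at 380, 346 and 360 CPM in KO and at 333, 336 and 324 CPM in the 4OHT control, a difference of 0.13 (95% interval -0.13 to 0.39) that did not pass the test.

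The 4OHT control was compared with the EtOH control to show how far the 2 control groups differ. None of the 9 transcripts was called in any fit of this comparison (0 by DESeq2 and 0 with the block), where 4.05% of all genes were called, 8.27% by DESeq2, 33.6% with the block and 17.1% without replicate 1. Under an unadjusted p value of 0.05 were 0 of the 9 and 18.0% of all genes. The groups overlapped for all 9, and did not for 21.7% of all genes. The differences ranged from -0.21 for mt-Nd2 to 0.03 for mt-Co1. For mt-Rnr2 the difference was -0.02 (95% interval -0.30 to 0.26), and for mt-Rnr1 it was -0.20 (-0.61 to 0.22).

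**Figure D2:**
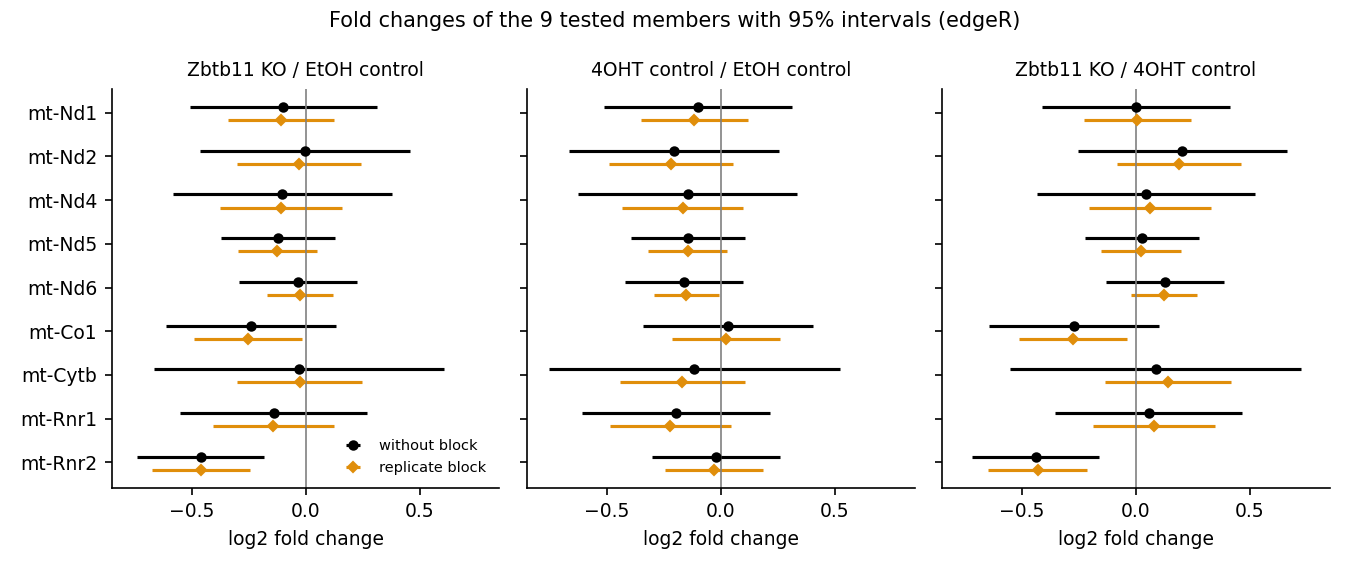
Log2 fold changes of the 9 tested transcripts in the 3 comparisons with 95% intervals, for 3 libraries per group. Circles are from the edgeR fit without the replicate number and diamonds from the fit with it as a block. The intervals of mt-Rnr2 lie below 0 in both comparisons of KO, in either fit. With the block, those of mt-Co1 also lie below 0 in both comparisons of KO. The blocked interval of mt-Nd6 lies below 0 between the control groups. Neither mt-Co1 nor mt-Nd6 was called in these blocked comparisons.

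Ratios between transcripts of the same library do not depend on how libraries are scaled. The ratio of mt-Rnr2 to mt-Rnr1 counts was 1.94, 2.04 and 1.91 in the EtOH control, 1.57, 1.58 and 1.56 in KO, and 2.51, 1.96 and 2.33 in the 4OHT control. The 3 KO libraries lay close together and below all 6 control libraries. On the log2 scale KO minus EtOH control was -0.37 to -0.29 in the 3 same-numbered pairs, with a mean of -0.32, and KO minus 4OHT control had a mean of -0.52. Both comparisons gave p = 0.10 (exact permutation test, two-sided, n = 3 per group), the smallest p value that 3 against 3 allows, and 0.15 after adjustment over the 3 comparisons. The 4OHT control and the EtOH control overlapped (difference 0.20, exact permutation p = 0.20). The rRNAs were depleted before sequencing, and whether the depletion of mt-Rnr1 and of mt-Rnr2 differed between libraries was not tested.

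The share of mt-Co1 among the counts on chrM messages, a measure chosen after its values had been seen, showed the groups in the same order. It was 41.4, 41.2 and 40.6% in the EtOH control, 40.0, 37.5 and 36.8% in KO and 45.5, 43.9 and 42.6% in the 4OHT control. No groups overlapped, and each of the 3 comparisons was at p = 0.10 (exact permutation test, n = 3 per group), the smallest possible, and at 0.10 after adjustment. The difference was -2.95 percentage points for KO minus EtOH control, -5.94 for KO minus 4OHT control and 2.99 for 4OHT control minus EtOH control. Other messages took shares that overlapped between KO and the EtOH control, such as 14.0 to 14.7% for mt-Nd1 in KO and 13.4 to 14.6% in the EtOH control. Between KO and the 4OHT control the shares of mt-Nd1, mt-Nd2 and mt-Nd4 did not overlap either, while those of mt-Nd5, mt-Nd6 and mt-Cytb did. The shares of a library add up to a fixed total, so a lower mt-Co1 share goes with higher shares elsewhere. In CPM, mt-Nd1, mt-Nd2 and mt-Nd4 overlapped in this comparison, where the groups did not overlap for 22.9% of all genes. For mt-Nd2 they were 9.15 to 11.2% in KO and 8.45 to 8.89% in the 4OHT control. The mt-Nd2 share, at 9.26 to 10.1% in the EtOH control, also separated the control groups.

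**Figure D3:**
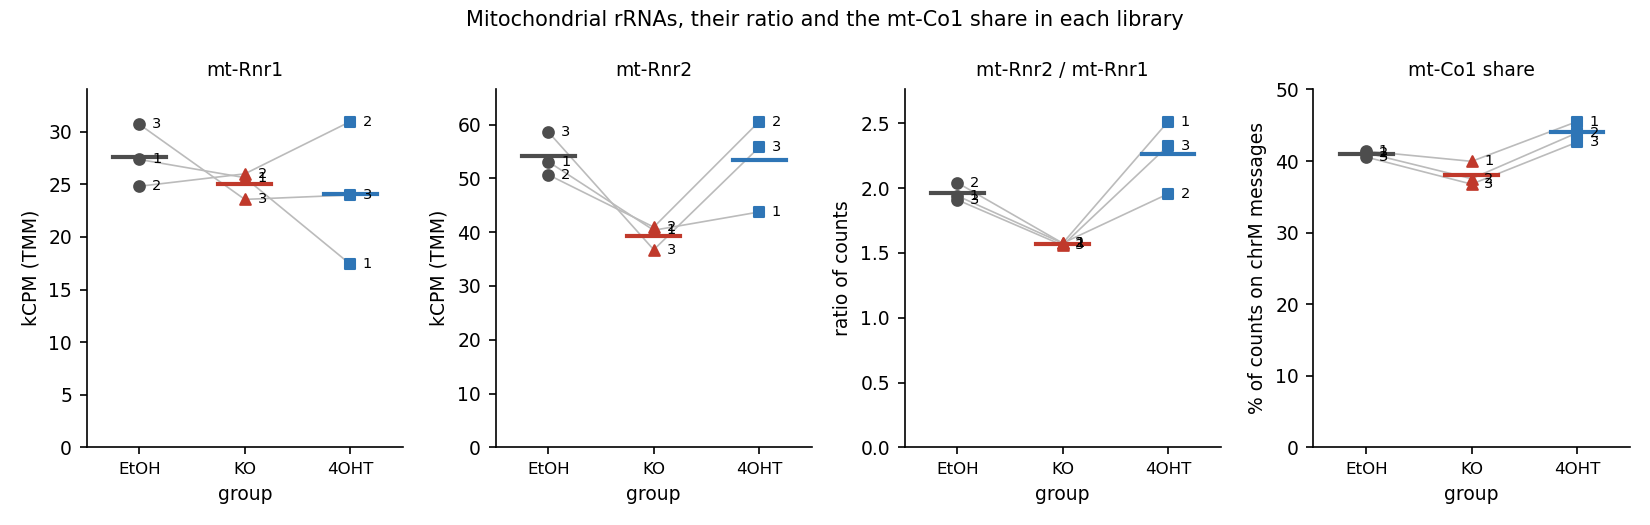
Levels of mt-Rnr1 and mt-Rnr2 in kCPM (CPM divided by 1000), the ratio of their counts, and the mt-Co1 share of counts on chrM messages, by group, with replicate numbers beside the points, grey lines joining same-numbered libraries and bars at the group means (n = 3). The ratio of 1.56 to 1.58 in KO lies below the 1.91 to 2.51 of the 6 control libraries, while the levels of mt-Rnr1 overlap.

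Together the chrM genes took 9.54, 8.65 and 10.1% of the counts on genes in the EtOH control, 8.15, 8.21 and 7.0% in KO and 7.29, 10.5 and 9.11% in the 4OHT control. KO was below the EtOH control without overlap, by 1.63 percentage points (exact permutation p = 0.10, adjusted 0.30, n = 3 per group), and overlapped with the 4OHT control (exact permutation p = 0.30). Without replicate 3 the difference from the EtOH control was -0.917 percentage points. The rRNAs made up most of this, with 6.03 to 6.82% of counts in KO against 7.41 to 8.66% in the EtOH control. The messages took 1.32, 1.43 and 0.969% in KO and 1.35, 1.24 and 1.4% in the EtOH control, which overlapped (difference -0.0866 percentage points, exact permutation p = 0.80). The rRNA part is what depletion left, and whether depletion differed between libraries was not tested. The lower chrM share in KO is thus not a measure of mitochondrial RNA in the cell. In bulk RNA, fewer cells that carry a transcript and less of it per cell cannot be told apart.

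The ratio of mt-Nd6 to the summed heavy-strand messages was used as a measure of the light strand. It was 0.034, 0.0249 and 0.0264 in the EtOH control, 0.0306, 0.0251 and 0.0385 in KO and 0.0337, 0.0233 and 0.0246 in the 4OHT control. The groups overlapped in all comparisons, with exact permutation p values of 0.50 to 0.60 (n = 3 per group). In these counts 94 genes that lie wholly within exons of an opposite-strand gene above 10 CPM had 0 counts, as did 178 genes within a same-strand host, so the counting did not separate strands. The reads at mt-Nd6 may thus come from either strand, and the ratio is not specific to the light strand.

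Over the 9 libraries the Pearson r of log2 CPM between pairs of heavy-strand messages ran from 0.489 for mt-Nd5 and mt-Cytb to 0.959 for mt-Nd1 and mt-Nd4. For mt-Nd6 it ran from -0.12 with mt-Cytb to 0.557 with mt-Nd5. These are descriptions over 9 libraries that share their groups and scaling. Among the genes outside chrM whose level was most like that of the summed heavy-strand messages, of 9216 genes above 10 CPM, were Stxbp4 (r = 0.90), Bcl9 (0.849), Zwilch (0.832) and Tnfrsf22 (0.813).

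Mitochondrial transcripts are made and processed by proteins encoded in the nucleus, and 38 such genes were followed, all of which were tested. They comprised 11 for transcription, 5 for processing of the precursor, 14 for stability, tailing and decay of the messages and 8 for maintenance of mitochondrial DNA. One of them, Tefm, the elongation factor of the mitochondrial RNA polymerase, was lower in KO in both comparisons. Tefm was at 36.0, 38.4 and 41.5 CPM in the EtOH control, 21.2, 22.9 and 23.0 CPM in KO and 32.9, 39.7 and 38.2 CPM in the 4OHT control. All KO libraries were below all control libraries. Tefm fell by 0.79 on the log2 scale against the EtOH control (SE 0.0998, adjusted p value 0.00407, edgeR) and by 0.72 against the 4OHT control (SE 0.1, 0.00305, edgeR). Without replicate 2 the adjusted p values were 0.364 and 0.231, and without replicate 3 they were 0.313 and 0.14 (edgeR), with differences of -0.81 and -0.69 and of -0.75 and -0.72. Leaving out any single library kept Tefm past the threshold.

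In KO against the EtOH control 1 of the 38 genes, Tefm, was called lower and 0 higher, where 0.899% of all genes were called, and the median of the list was 0.01. Against the 4OHT control 1 was called lower and 0 higher where 6.45% of all genes were called, with a median of 0.06, and between the control groups 0 were called. With the replicate block these counts were 2, 11 and 9, where 2.25%, 34.9% and 33.6% of all genes were called. In KO against the EtOH control the second gene was Ssbp1, which coats single-stranded mitochondrial DNA. Ssbp1 was at 38.5, 57.0 and 52.9 CPM in the EtOH control and 31.8, 39.4 and 37.2 CPM in KO (difference -0.45, adjusted p value 1 without the block and 8.31e-05 with it, edgeR). A consensus Zbtb11 ChIP-seq peak lay within 1000 bases of the annotated start of 20 of the 38 genes (52.6%), Tefm and Ssbp1 among them, and of 28.0% of all tested genes.

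**Figure D4:**
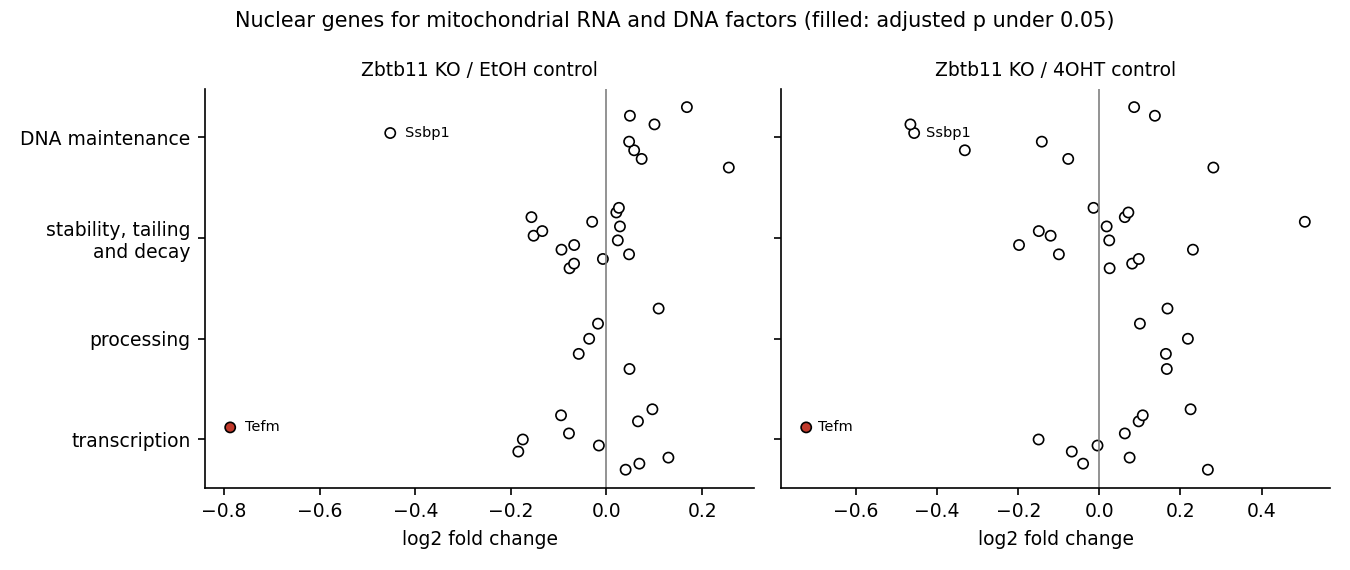
Log2 fold changes of the 38 nuclear genes for mitochondrial RNA and DNA factors by step, in KO against each control group, 1 point per gene. Filled points are those with an adjusted p value under 0.05 (edgeR). Tefm, at -0.79 and -0.72, is filled in both panels, and Ssbp1 is named for comparison.

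Finally, the ChIP-seq peak lists were searched for peaks on chrM itself. The lists for FLAG-Zbtb11 (9350 peaks) and for the Zbtb11 antibody (8957 peaks), and the 7500 consensus peaks, held 0 peaks on chrM. The FLAG control in untagged cells held 6 of its 274 peaks there, which covered 58.2% of chrM. The longest stretch without a peak was chrM:4830-10953, which holds mt-Co1, mt-Co2 and most of mt-Nd4. Within it 82.6% of windows of 50 bases, the length of a ChIP-seq read, had an exact copy elsewhere in mm9, against 3.54% inside the peaks. The authors kept only uniquely aligned ChIP-seq reads. The paper states that blacklisted sites were removed from the peak set. After counting 9350 FLAG-Zbtb11 peaks, the authors also removed those shared with the FLAG control. The list used here still has 9350 peaks, the count before that removal, and already held 0 peaks on chrM. Whether the removal of blacklisted sites took away peaks on chrM was not tested, so 0 peaks there is not a measure of signal. The lists give positions without a score and each holds all replicates of a ChIP together, so they were not compared by a test.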

How the data were processed

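RNA-seq libraries (rRNA-depleted, directional, 75-base paired-end) of 3 groups with 3 biological replicates were analysed. The authors deposited raw counts per gene, made with HTSeq from STAR alignments of reads trimmed by TrimGalore and PRINSEQ. Between 25.3 and 31.6% of reads fell on no annotated gene, and a further 0.79 to 0.91% were ambiguous between genes. Both stayed out of library sizes. Peak positions are also as deposited by the authors (Bowtie on mm9, MACS2 with IDR). Coverage columns, input libraries and other comparisons were not used here.

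Genes above 1 CPM in at least 3 libraries (2 where a group had 2) were tested with edgeR 4.0.16 in R 4.3.3 (TMM, quasi-likelihood F test, legacy form, all 9 libraries in 1 fit), with Benjamini-Hochberg adjustment over all tested genes and a threshold of 0.05. DESeq2 1.42.0 was an alternative. Adjusted p values are edgeR's unless DESeq2 is named. Single values were compared by two-sided exact permutation tests with scipy 1.17.1. The fit was tested on simulated data. Copies of chrM in mm9 were found with blastn 2.17.0, and windows were compared base by base. Figures were drawn with matplotlib 3.10.9.

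Libraries with the same replicate number deviated together from their group means (r of 0.43 to 0.82 over 9 pairs across genes, against -0.753 to 0.526 for different numbers), so the numbers were taken as pairs, a property read from the data and not from the labels. Replicates 2 and 3 were less clearly told apart than replicate 1. For replicate 2 of the EtOH control, r was 0.43 with replicate 2 of the 4OHT control and 0.526 with its replicate 3. For replicate 3, each same-numbered r was above the different-numbered ones. The blocked value stands beside a result where it moves a call. Named were all 10 transcripts, the other chrM genes by class, genes of the factor list called without the block, and the 5 genes most like the heavy-strand messages, of which 1 is not reported here. Ssbp1 was named after its values were seen. Older symbols were matched through RefSeq synonyms (Tefm is 1110002N22Rik in the files). The transcripts and lists were chosen with earlier results of these data known.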

Additional observations from a re-analysis of the deposited data

How the results depend on the processing

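In both comparisons of KO, the log2 fold change of mt-Rnr2 stayed negative under every alternative tried, at -0.54 to -0.35 against the EtOH control and -0.59 to -0.33 against the 4OHT control when 1 library or replicate was left out. The pairing by replicate number (replicate block) moved the number of chrM transcripts called from 0 to 1 in both comparisons of KO, and the number of factor genes called from 1 to 2 against the EtOH control, from 1 to 11 against the 4OHT control and from 0 to 9 between the control groups, where the block called 2.25%, 34.9% and 33.6% of all genes. The block changed no other call among the 10 transcripts. With DESeq2, 1 chrM transcript was called in KO against the 4OHT control, and 2 factor genes between the control groups.

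With 1 library or replicate left out, the chrM transcripts called ranged from 0 to 1 in KO against the EtOH control and from 0 to 2 against the 4OHT control. The factor genes called were counted only with a whole replicate left out. They ranged from 0 to 2 and from 0 to 5 in these comparisons and from 0 to 5 between the control groups. Against the EtOH control the factor list went to 0, without Tefm, when replicate 2 or replicate 3 was left out, and against the 4OHT control likewise. The settings differ in how many libraries and genes enter, and the cause was not tested.

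Differences near 0 changed sign. In KO against the EtOH control, mt-Nd2 was at 0.038 with library sizes in place of TMM, 0.00143 when scaled on nuclear genes and 0.00238 with no filter, and with library sizes mt-Nd6 was at 0.00030 and mt-Cytb at 0.012. With 1 library or replicate left out, the log2 fold change in KO against the EtOH control ran from -0.25 to 0.22 for mt-Cytb, -0.25 to 0.080 for mt-Nd1, -0.20 to 0.23 for mt-Nd2, -0.32 to 0.18 for mt-Nd4, -0.25 to 5.55e-05 for mt-Nd5 and -0.15 to 0.094 for mt-Nd6. In the 4OHT control against the EtOH control it ran from -0.12 to 0.16 for mt-Co1, -0.31 to 0.16 for mt-Cytb, -0.23 to 0.072 for mt-Nd1, -0.34 to 0.046 for mt-Nd4 and -0.17 to 0.11 for mt-Rnr2. In KO against the 4OHT control it ran from -0.19 to 0.33 for mt-Cytb, -0.19 to 0.21 for mt-Nd1, -0.025 to 0.43 for mt-Nd2, -0.16 to 0.27 for mt-Nd4, -0.082 to 0.14 for mt-Nd5 and -0.15 to 0.28 for mt-Rnr1.

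For the shares and ratios, leaving out 1 replicate gave differences in the chrM share of -1.6 to 0.465 percentage points between the control groups, and in its rRNA part, a measure added after seeing the data, of -1.41 to 0.394. The share of the messages differed by -0.225 to 0.0839 percentage points in KO against the EtOH control, -0.19 to 0.0709 between the control groups and -0.189 to 0.125 in KO against the 4OHT control. The log2 ratio of mt-Nd6 to the heavy-strand messages differed by -0.071 to 0.28 and by -0.017 to 0.38 in KO against the EtOH and 4OHT controls. With mt-Cytb alone as the denominator it was 0.028 between the control groups and -0.015 in KO against the 4OHT control. The log2 ratio of rRNA to message counts, also added afterwards, differed by -0.047 to 0.016 between the control groups. With 3 libraries per group the exact tests could not go below 0.10, and the nuclear copies leave mt-Co2 and parts of mt-Co1 and mt-Nd4 out of reach at any depth.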
